A study of Mus musculus with 12 samples.

Results

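The replication-dependent histone genes were taken as the protein-coding genes of GENCODE release M1, an annotation of the mouse assembly mm9, whose symbols begin with Hist1h, Hist2h, Hist3h or Hist4h. They were 67 of 22380 protein-coding genes, 55 in Hist1 on chromosome 13, 9 in Hist2 on chromosome 3, 2 in Hist3 on chromosome 11 and 1 in Hist4 on chromosome 6. By type they encode 6 linker histones H1, 19 H2A, 18 H2B, 11 H3 and 13 H4. The measurement is ChIPseq of BRG1, the ATPase of BAF chromatin remodelling complexes, in cardiac precursors (CPs) derived from mouse embryonic stem cells. The cells were wild type, of strain W4/129S6, without a treatment apart from the growth factors of the differentiation. They gave 2 BRG1 ChIP libraries, made with the antibody ab110641, and 1 input library, and the other 9 libraries of the series were not analysed here. The authors deposited 1 list of enriched regions, with 4791 rows and 3473 distinct regions, each given by its position alone. Of the distinct regions, 793 stood on more than 1 row, up to 20 rows, and why rows repeat is not given in the sources used here. That the list belongs to wild-type CPs rests on the name under which it was deposited and on its number of rows. The number of distinct regions is the same as a count of BRG1 sites that the study's text gives for cardiomyocytes (CMs), the later stage. Whether the distinct regions are those of CPs alone could not be settled from this list, and each count that follows carries that doubt.

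Replication-dependent histone genes supply the histones that package newly copied DNA, and they are switched on together in S phase. They lie in clusters, lack introns as a rule, and many H2A and H2B genes stand head to head and share the DNA between their start sites. Their mRNAs end in a conserved stem-loop in place of a poly(A) tail, bound by SLBP (stem-loop binding protein), and NPAT and CASP8AP2 (FLASH) gather at the clusters in a nuclear body. Histone variants such as H2A.Z and H3.3 come from genes elsewhere, which are transcribed through the cell cycle and give polyadenylated mRNAs.

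No histone promoter held a listed BRG1 region, so the sequences shown come from promoters without one. They were chosen after the values had been seen, as an H2A and H2B pair, an H4 gene and an H1 gene. The capitals mark matches, on either strand, to 5 words known from histone promoters, each spelled out beside its counts. The stretch between the start sites of Hist2h2ac and Hist2h2be is chr3:96024804-96025043 of mm9, read on the plus strand. The 200 bp upstream of Hist1h4i are chr13:22133222-22133421 on the minus strand, and those upstream of Hist1h1c are chr13:23830476-23830675 on the plus strand. For contrast, the last line gives a whole listed region, chr13:24373026-24373165 on the plus strand, which lies within 1 kb of a start site of Lrrc16a and is the nearest region to 31 Hist1 genes.
Hist2h2ac/Hist2h2be: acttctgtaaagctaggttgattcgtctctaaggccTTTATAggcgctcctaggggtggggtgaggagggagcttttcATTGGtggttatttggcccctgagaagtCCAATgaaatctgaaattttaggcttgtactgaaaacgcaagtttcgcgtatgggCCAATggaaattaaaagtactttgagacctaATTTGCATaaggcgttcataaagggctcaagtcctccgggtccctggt
Hist1h4i: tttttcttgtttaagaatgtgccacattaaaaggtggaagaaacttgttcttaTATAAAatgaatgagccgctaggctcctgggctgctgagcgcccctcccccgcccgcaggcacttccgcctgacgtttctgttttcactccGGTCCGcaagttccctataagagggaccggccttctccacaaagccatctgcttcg
Hist1h1c: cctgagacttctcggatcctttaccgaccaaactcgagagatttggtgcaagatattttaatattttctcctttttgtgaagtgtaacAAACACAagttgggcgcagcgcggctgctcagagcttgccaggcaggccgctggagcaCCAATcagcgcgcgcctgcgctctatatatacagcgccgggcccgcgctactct
Lrrc16a region: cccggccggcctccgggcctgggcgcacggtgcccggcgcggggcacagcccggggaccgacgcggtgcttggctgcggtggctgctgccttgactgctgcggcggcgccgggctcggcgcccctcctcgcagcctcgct

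The label was checked against the mark of replication-dependent histone mRNAs. The search took the 300 bp after the coding sequence and looked for arms of 6 bases, beginning with GG and ending in CT, around a loop of 3 T and any base. A stem-loop was found for 61 of 67 genes, beginning 24 to 61 bp after the last codon before the stop, with a median of 33 bp. No share of other genes with a match is given here, so how particular the match is to these genes is not shown. The commonest form stood behind 39 genes of the types H1, H2A, H2B and H3. A form with A as the last loop base stood behind 9 genes of those types. The form of 8 H4 genes, Hist4h4 among them, had another arm. The 6 genes without a match were Hist1h2an, Hist1h3g, Hist1h4a, Hist1h2al, Hist2h2be and Hist2h2bb. No match says only that these letters are not in that stretch. The capitals in these forms mark the loop.
Form of 39 genes: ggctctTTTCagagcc
Form of 9 genes: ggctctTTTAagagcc
Form of 8 H4 genes: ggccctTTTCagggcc

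At the promoters, defined as 1 kb either side of an annotated transcription start site (TSS), 0 of 67 histone genes had a listed region. Over all protein-coding genes the share was 11.9% (2667 of 22380). The count was 0 of 55 in Hist1, 0 of 9 in Hist2, 0 of 2 in Hist3 and 0 of 1 in Hist4. It was likewise 0 for the 6 H1, 19 H2A, 18 H2B, 11 H3 and 13 H4 genes. Hist2, Hist3, Hist4 and the H1 type hold too few genes for a count of 0 to set them apart from the share over all genes. The chromosomes themselves, counted with the histone genes included, held listed promoters. The share of protein-coding genes with a region was 11.4% on chromosome 13 (99 of 866), 14.5% on chromosome 3 (153 of 1057), 15.3% on chromosome 11 (253 of 1653) and 11.4% on chromosome 6 (133 of 1171). The list holds only what passed the authors' threshold, with no height and no depth. A histone promoter without a listed region could carry signal below that threshold, and there is no error between replicates.

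Inside the clusters the count was also 0. Members no more than 100 kb apart were joined into 8 stretches, and no listed region lay in any of them or within 10 kb of their ends. The longest stretch, of 233 kb, was shorter than the median interval of 272 kb between neighbouring regions of the list. Stretches this short can hold no region by their length alone, and no count over other stretches of like length was made. The stretches of Hist1 on chromosome 13 were chr13:21807632-21929399 with 18 genes, chr13:22126982-22135545 with 5, chr13:23622919-23856283 with 29 and chr13:24025637-24026720 with 2. Hist1h2al lay apart from them at chr13:51298057-51298434. Hist2 spanned 59.1 kb at chr3:96023839-96082924, and the 2 genes of Hist3 spanned 7.76 kb at chr11:58762413-58770176. The other protein-coding genes inside the stretches were Hfe, which encodes a regulator of iron uptake, and the gene model Gm17658, and neither had a region.

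**Figure D1:**
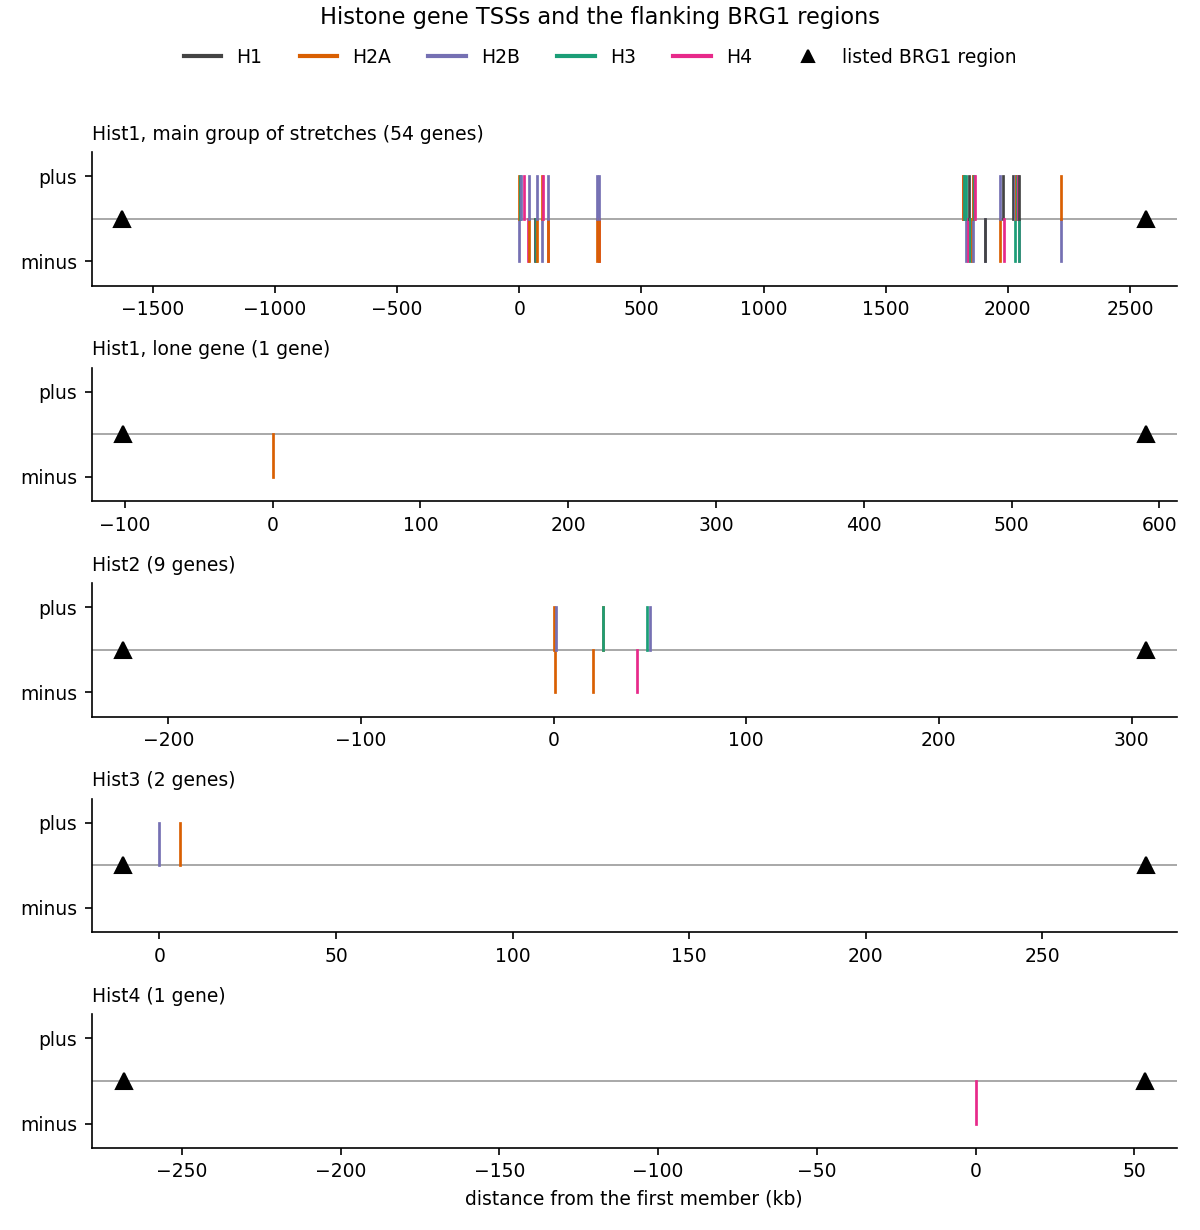
Position of each histone TSS (coloured lines, up for the plus strand and down for the minus strand) and of the nearest listed BRG1 region on each side (black triangles), in kb from the first member of each panel. Only these flanking regions are drawn, so the panels cannot show a region among the genes. By count, none lay among the 54 genes of the upper panel, the 9 of Hist2 or the 2 of Hist3.

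The 54 genes of the first Hist1 stretches all lay in a single interval without a listed region. It reached from a region at the Elmo1 promoter, chr13:20182566-20183325, to the Lrrc16a region shown above, over 4.19 Mb. Of the 3453 intervals between neighbouring regions of a chromosome it was number 86 by length, against a median of 272 kb. By the number of protein-coding genes lying wholly within it was number 6, with 131 genes, against a median of 2. The 5 intervals with more genes lay on the X chromosome, with 409 and 208 genes, on chromosome 2, with 230 genes, and on chromosome 7, with 171 and 170 genes. Olfactory receptor genes made up 221 of the 230 genes on chromosome 2 and 129 of the 171 on chromosome 7. In the other interval of chromosome 7 they made up 0 of the 170 genes, and vomeronasal receptor genes (Vmn) made up 64. On X, olfactory receptor genes made up 7 of the 409 and 0 of the 208. The 77 other genes of the Hist1 interval included 32 vomeronasal receptor genes (Vmn1r), 13 olfactory receptor genes (Olfr), 7 zinc finger genes, 4 transporter genes of the Slc17a family and the butyrophilin genes Btn1a1 and Btn2a2. Lrrc16a, whose promoter window holds the closing region, was the 1 gene of those 77 with a region. The median number of CpG dinucleotides in the 2 kb around the TSS was 14 for those 77 genes and 89 for the Hist1 genes, so the histone promoters differed in CpG number from most of the genes around them.

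The intervals around the other clusters were shorter. Hist2 lay in 530 kb without a region, with 17 protein-coding genes, between chr3:95800026-95801165 near the TSS of Plekho1 and chr3:96331026-96331285 inside Hfe2. Hist3 lay in 289 kb with 10 genes, Hist4h4 in 321 kb with 8 genes, and Hist1h2al in 692 kb with 7 genes. The regions closest to these were at the promoters of Rnf187 (chr11:58751946-58752265), Art4 (chr6:136805686-136806265) and Spin1 (chr13:51196306-51196785). The Rnf187 region, 320 bp wide, ended 10.1 kb before the first gene of Hist3 and was the closest to any histone gene.

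From TSS to the midpoint of the nearest region, the median distance of the histone genes was 707 kb, with quartiles at 519 and 1660 kb and a range of 10.3 to 1950 kb. Over all protein-coding genes the median was 166 kb, with quartiles at 46.3 and 533 kb. Within 100 kb of a region lay 3 of 67 histone genes, against 38.2% of all protein-coding genes. Within 1 Mb the count was 44 of 67, against 85.2%. Distances on chromosome 13, which holds the 55 Hist1 genes, were longer than over the genome. Its protein-coding genes, the Hist1 genes and their neighbours among them, had a median of 367 kb, with 28.5% within 100 kb and 71.7% within 1 Mb. The Hist1 genes had a median of 737 kb, with 0 of 55 within 100 kb and 32 of 55 within 1 Mb. Neighbours in a cluster share their nearest region, so these distances are far from independent. A total of 23 genes shared the Elmo1 region and 31 the Lrrc16a region.

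**Figure D2:**
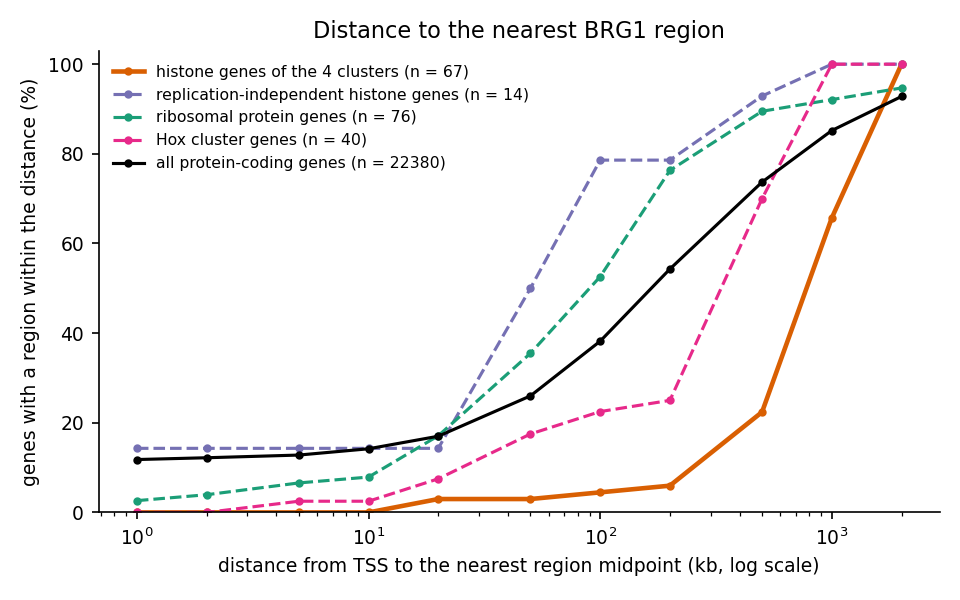
Share of genes (percent, y axis) with a region midpoint within a given distance of a TSS (kb, log scale), for histone genes, other gene lists and all protein-coding genes. The curve of the histone genes lies below that of all genes up to 1000 kb and reaches 100% at 2000 kb.

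The core histones of Hist3 were nearest to a region. Hist3h2ba, an H2B gene at chr11:58762413-58763032 on the plus strand, was 10.3 kb away from the Rnf187 region. Hist3h2a, an H2A gene at chr11:58768187-58770176, also on the plus strand, was 16.1 kb from it. Hist4h4, an H4 gene at chr6:136752589-136752900 on the minus strand, was 53.1 kb from the Art4 region. These 3 were the histone genes within 100 kb.

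The 9 genes of Hist2 lay 223 to 264 kb from a region. The H2A genes were Hist2h2ab (chr3:96023839-96024231, plus strand) at 223 kb, Hist2h2ac (chr3:96024284-96024803, minus) at 224 kb, Hist2h2aa2 (chr3:96043639-96044216, minus) at 244 kb and Hist2h2aa1 (chr3:96049461-96050038, plus) at 249 kb. The H2B genes were Hist2h2be (chr3:96025044-96027661, plus) at 224 kb and Hist2h2bb (chr3:96073644-96082924, plus) at 258 kb. The H3 genes were Hist2h3c1 (chr3:96049477-96052431, plus) at 249 kb and Hist2h3b (chr3:96072577-96073064, plus) at 259 kb, and Hist2h4, an H4 gene (chr3:96065627-96067234, minus), was at 264 kb. The first 6 of them along the chromosome were nearest to the Plekho1 region and the last 3 to the Hfe2 region.

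In Hist1 the nearest to a region was Hist1h2al, an H2A gene on the minus strand, 102 kb from the Spin1 region. Hist1h2ba (chr13:24025637-24026025, minus strand) and Hist1h2aa (chr13:24026331-24026720, plus strand), H2B and H2A genes best known from the testis, were each 347 kb from the Lrrc16a region. The farthest were Hist1h2bj (chr13:22135083-22135545, plus strand), Hist1h2ag (chr13:22134348-22134818, minus strand) and Hist1h4i (chr13:22132685-22133221, minus strand), each 1950 kb from the Elmo1 region. The 5 genes of their stretch were between 1940 and 1950 kb away, and the 29 genes of the largest stretch between 518 and 750 kb. The 18 genes of the first stretch were between 1630 and 1740 kb away. By type the medians were 622 kb for H1, 707 kb for H2A, 724 kb for H2B, 705 kb for H3 and 730 kb for H4.

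Head-to-head gene pairs were counted next, as neighbours on opposite strands whose TSSs point away from each other and lie at most 1 kb apart. There were 13, of which 12 joined an H2A with an H2B gene and 1 joined Hist1h2bh with the H3 gene Hist1h3f. Between their TSSs lay 167 to 692 bp, with a median of 240 bp. The 692 bp are those of the pair with Hist1h3f, whose annotated TSS lies 433 bp before its coding sequence. A listed region overlapped the stretch between the TSSs in 0 of 13 pairs, beside 5.82% of all such pairs of neighbouring protein-coding genes (46 of 791). With 13 pairs, a count of 0 does not set them apart from that share. The word CCAAT was in 13 of the 13 stretches, with up to 5 matches in a stretch, and the octamer ATTTGCAT in 5. No share over all such pairs is given for these words. In the 250 bp upstream of all protein-coding genes, a window of another length, CCAAT was in 35% and ATTTGCAT in 1.62%. The stretch of Hist1h2bq and Hist1h2ao was the same 167 bp as that of Hist1h2ap and Hist1h2br.

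The upstream sequence carried words known from histone promoters. Words were searched on both strands in the 250 bp upstream of the TSS and set against the same search at 22367 protein-coding genes. TATAAA was in 33 of 67 histone promoters (49.3%) and in 12.3% of all. CCAAT was in 57 (85.1%) and in 35% of all, with matches in 19 of 19 H2A, 18 of 18 H2B, 6 of 6 H1 and 10 of 11 H3 genes but 4 of 13 H4 genes. ATTTGCAT, the octamer of H2B promoters, was in 15 (22.4%) and in 1.62% of all, with 8 H2B genes, 7 H2A genes and none of the other types. Pairs share this sequence, so an octamer between an H2A and an H2B gene can count for both. AAACACA, a word of H1 promoters, was in 9 (13.4%) and in 5.67% of all, and in 5 of 6 H1 genes. GGTCCG was in 13 (19.4%) and in 7.79% of all, and in 11 of 13 H4 genes. The match nearest the TSS began a median of 61 bp upstream for TATAAA, 70 bp for CCAAT, 119 bp for ATTTGCAT, 114 bp for AAACACA and 66 bp for GGTCCG. For TATAAA the quartiles were 33 and 142 bp, and 26 of the 33 genes had a match on their own strand. Neither position nor strand was required for a match. In genes with a BRG1 region the shares were 4.54% for TATAAA, 28.8% for CCAAT, 1.5% for ATTTGCAT and 3% for AAACACA, each below that of all genes. For GGTCCG the share in genes with a region was 11.9%, above that of all genes. A match is a match of letters and not a binding site. At 9 genes, Hist4h4 among them, the annotated TSS is the first base of the coding sequence, so their upstream window includes any leader the annotation leaves out. At Hist1h2be it lies 35168 bp before the coding sequence, which is in another exon. At Hist1h3f it lies 433 bp before the coding sequence, and none of the 5 words was in the 200 bp upstream. At Hist2h3c1 the annotated 5' end lies 1197 bp before the coding sequence and next to the TSS of the H2A gene Hist2h2aa1. The matches counted for this H3 gene, CCAAT and TATAAA, therefore lie in the upstream sequence of Hist2h2aa1.

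In base composition, the medians of the histone promoters lay below those of promoters with a region. In the 2 kb around the gene's 5' end, the histone genes had a median of 91 CpG dinucleotides, against 120 for protein-coding genes with a region and 51 for those without. Their median GC content was 49.4%, against 58% with a region and 50.2% without. In the stretch of 360 bp with the highest GC content inside the window, 360 bp being the median width of a region, the histone genes reached a median of 68.6% and at most 71.4%. Genes with a region had a median of 76.7% with the lower quartile at 73.3%, and genes without one a median of 63.1%. The GC-richest stretches were those of H2A and H2B genes, each with a median of 70.6%, then H3 with 68.3%, H1 with 63.9% and H4 with 63.6%. The median GC content over the regions themselves was 72.4%, and that of the Lrrc16a region shown above was 81.4%.

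These measures were then used to narrow the genes set beside the members, a choice made after seeing the data. Of genes with at least 91 CpG, the median of the members, 30.9% had a region (2075 of 6724), and 0 of the 34 histone genes among them did. Of genes with a GC content between the members' quartiles, 47.1% and 51.3%, 4.65% had a region (213 of 4584), against 0 of 33 members. Where both conditions held it was 14.6% (41 of 281), against 0 of 16 members. Of genes whose GC-richest stretch lay between the members' quartiles, 63.9% and 71%, 4.61% had a region (228 of 4946), against 0 of 35 members. Of genes whose GC-richest stretch lay above that of every histone gene, 33.8% had a region (2216 of 6548). The share set beside the members thus ranged from below to above the 11.9% of all genes, depending on the measure. The part of base composition in the count of 0 was not tested.

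**Figure D3:**
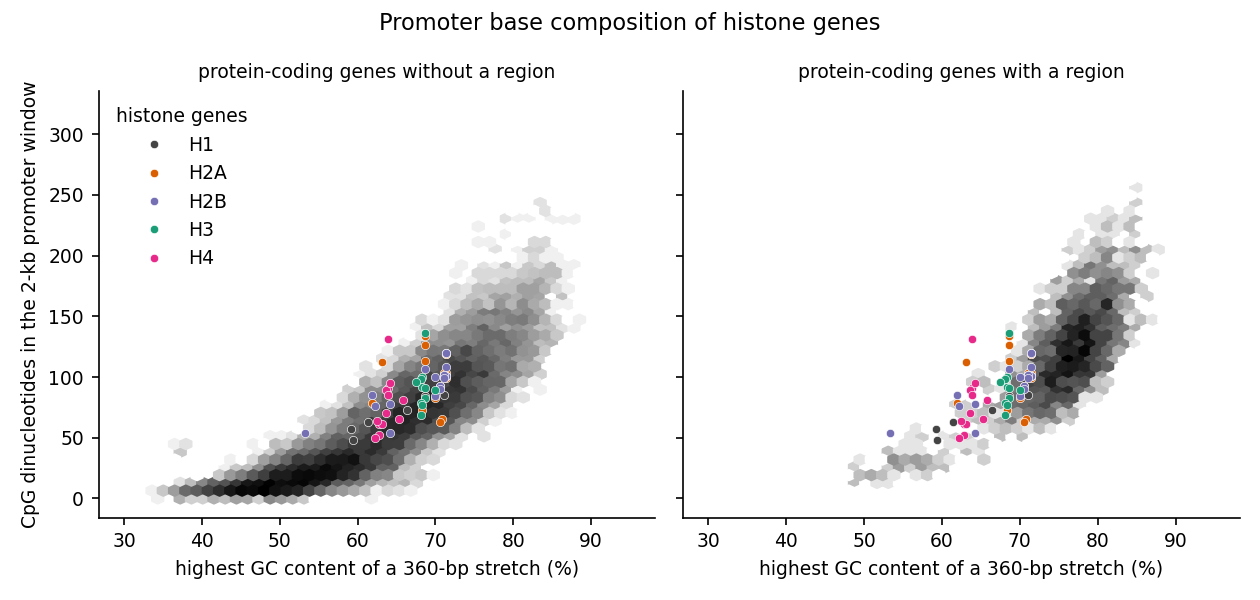
CpG number in the 2-kb promoter window against the highest GC content (percent) of a 360-bp stretch in it, with histone genes as dots coloured by type and other protein-coding genes as grey density on a log scale, without a region on the left and with one on the right. The same histone genes are drawn in both panels, and none exceeds 71.4% GC.

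Histone genes resemble each other in sequence, so the mappability of their promoters was measured. A base of the promoter window was counted as unique where the word of 75 bases that starts there, the read length, occurs once in mm9 on either strand. The median over histone genes was 83.4% with quartiles at 72.9% and 93.8%, against a median of 100% over all protein-coding genes. Hist1h2bq, Hist1h2ao, Hist1h2ap and Hist1h2br had no unique word, and Hist1h4m and Hist1h4n had 11% and 13.6%. In Hist2, Hist2h2aa2, Hist2h2aa1 and Hist2h3c1 were at 46.9%, 46.7% and 45.8%. The other 58 genes were above 50%, and 6 of them were unique throughout, including Hist4h4, Hist2h4 and Hist1h1a. Of the 39 members that were at least 80% unique, 0 had a region, against 12.9% of all such genes (2659 of 20675). By type the median was 97.4% for H1, 91.9% for H4, 83.1% for H3, 74.6% for H2B and 73.8% for H2A. The authors kept reads above a mapping quality, and how many reads of these promoters that removed was not tested.

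**Figure D4:**
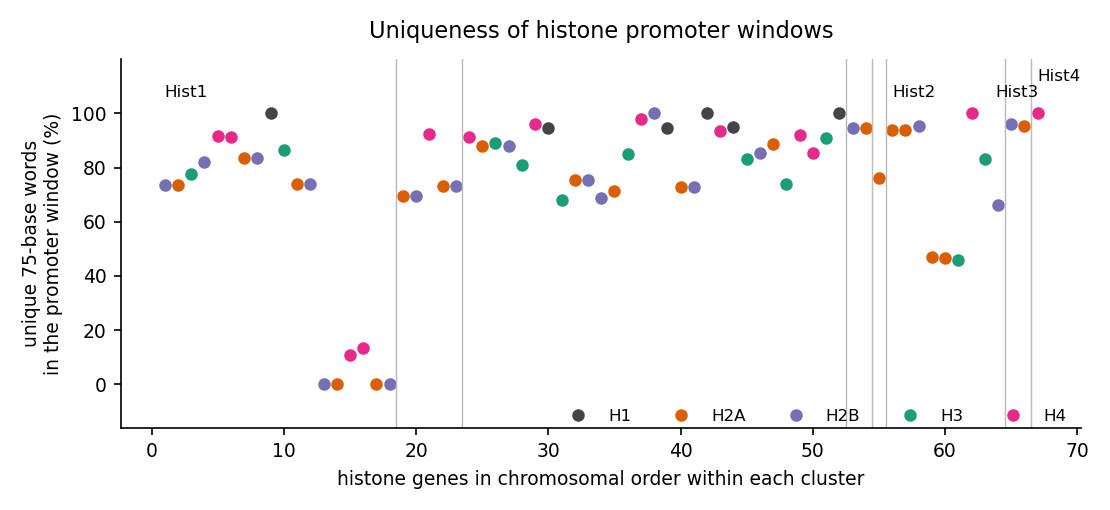
Share of unique 75-base words (percent) in the promoter window of each histone gene, ordered along each cluster, with grey lines between the 8 stretches and colours for type. A group of 4 genes lies at 0%, while 39 genes lie at or above 80%.

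Histone genes outside the clusters were counted in the same way. Of 18 listed replication-independent histone genes, 14 were matched, and 2 of 14 had a region at the promoter, beside the 11.9% of all genes. Both encode macroH2A, a large H2A variant found on silent chromatin. H2afy had a region of 880 bp at chr13:56236166-56237045, and H2afy2 one of 880 bp at chr10:61245966-61246845. No region was listed at H2afz or H2afx, at the H3.3 genes H3f3a and H3f3b, or at Cenpa, the centromeric H3. H2afj lies close to Hist4h4 and was 49.2 kb from its nearest region. The median distance over the 14 genes was 58.3 kb, against 166 kb over all protein-coding genes, and 11 (78.6%) lay within 100 kb of a region, against 38.2%.

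Of 22 genes that act in histone gene transcription or histone mRNA processing, 5 had a region (22.7%), beside 11.9% of all protein-coding genes. The difference was not tested. Ccne1 and Ccne2 encode cyclins E, which with CDK2 phosphorylate NPAT, and their regions were chr7:38892186-38892905 with 720 bp and chr4:11117726-11118365 with 640 bp. Pou2f1 encodes the octamer-binding factor OCT1 and had a region of 740 bp at chr1:167931786-167932525. Lsm11 encodes a subunit of the U7 snRNP, which takes part in histone mRNA cleavage, and had a region of 140 bp at chr11:45758106-45758245. Cpsf3 encodes the endonuclease of that cleavage and had a region of 360 bp at chr12:21291686-21292045. No region was listed at Npat, Casp8ap2 or Slbp, which were 104, 312 and 43 kb from the nearest.

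Of 19 histone chaperone genes, 4 had a region (21.1%), beside 11.9% of all protein-coding genes, and this difference was not tested either. Asf1a, whose product hands H3 and H4 to other chaperones, had a region of 800 bp at chr10:53316826-53317625. Nasp, whose product binds H3 and H4 and linker histones, had one of 740 bp at chr4:116299286-116300025. Anp32e, whose product removes H2A.Z, had one of 720 bp at chr3:95733586-95734305, on the chromosome of Hist2. Ubn1, a subunit of the HIRA complex for H3.3, had one of 460 bp at chr16:5050306-5050765. No region was listed at Chaf1a or Chaf1b, which encode subunits of the CAF-1 complex that deposits replication-dependent H3.

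**Figure D5:**
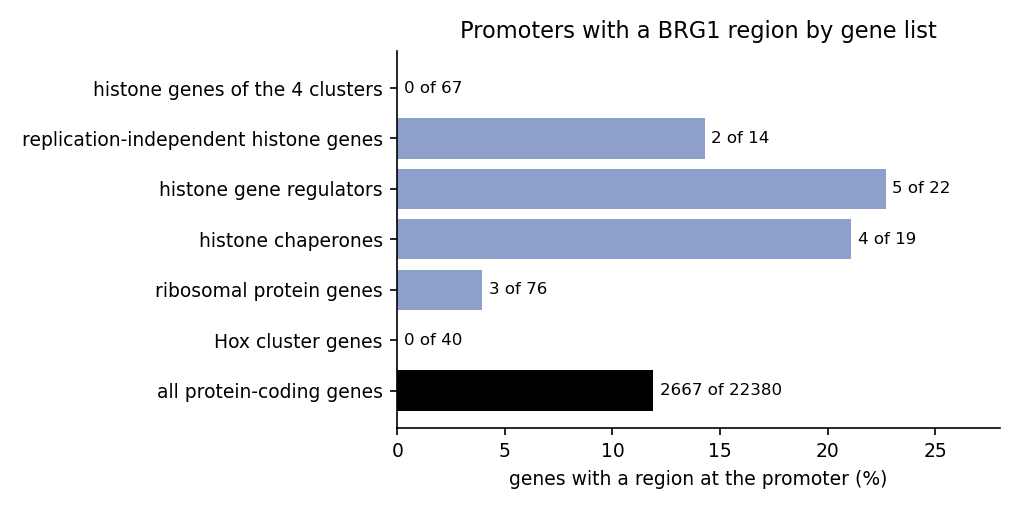
Share of genes with a region at the promoter (percent) for the histone genes of the clusters, 3 lists of related genes, ribosomal protein genes, Hox genes and all protein-coding genes, with counts beside the bars. The bars of the histone clusters and of the Hox genes are at 0, and that of all protein-coding genes is at 11.9%.

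Beside them, 3 of 76 ribosomal protein genes (3.95%) and 0 of 40 annotated genes of the Hox clusters had a region, against 11.9% of all protein-coding genes, and these differences were not tested. Ribosomal protein genes, like histone genes, are many genes of high output, but they are scattered, and their median distance to a region was 88.7 kb against 707 kb for the histone genes. Their GC-richest 360 bp had a median of 67.8%, against 68.6% for the histone genes. Hox genes are clustered like histone genes, and their median distance was 325 kb. A total of 40 of 76 ribosomal protein genes (52.6%) and 9 of 40 Hox genes (22.5%) lay within 100 kb of a region, against 3 of 67 histone genes (4.48%) and 38.2% of all protein-coding genes.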

How the data were processed

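Per the authors, single-end reads of 75 bp went through fastq-mcf and Bowtie onto mm9, those of low mapping quality were dropped, and bins past a P-value threshold relative to input were kept. The deposited list holds positions in bp and no score. The way both libraries entered the list, and the versions of the trimming, alignment and bin-calling tools, are not given in the sources used here. Starts were read as counted from 0 and are printed counted from 1, and identical rows were counted once. Genes came from GENCODE release M1, with Python 3.11.15, numpy 2.4.6, pandas 2.3.3, numba 0.67.0, scipy 1.17.1 and matplotlib 3.10.9. Counting of promoters and distances was tested on simulated regions. The members and lists were chosen with earlier results of these data known. Genes named are all members of Hist2, Hist3 and Hist4, in Hist1 the 3 nearest to and the 3 farthest from a region, members at the widest or narrowest regions (there were none), and every gene of the 3 related lists with a region. Others, and the sequences printed, were chosen after their values were seen. Ribosomal protein and Hox genes were taken by symbol.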

Additional observations from a re-analysis of the deposited data

How the results depend on the processing

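The share of histone promoters with a region was 0 under 14 alternatives, 4 of them chosen after seeing the data, while the share of the genes set beside them ranged from 3.2% to 30.9%. The alternatives were narrower, wider or upstream windows, the gene's 5' end, region midpoints, regions of at least 200 bp or on more than 1 row, unique promoters, genes of all biotypes (0 of 70), genes with a stem-loop (0 of 61), and limits on CpG and GC content. No region lay inside the clusters and none between divergent TSSs under the alternatives tried, with the limits given above for both counts. The median distance was 707 kb to the midpoint and to the nearest edge. In 500 bp upstream, TATAAA was in 58.2% of histone promoters against 24.6% of all, and AAACACA in 16.4% against 13.2%. CCAAT was in 86.6% against 53.4%, ATTTGCAT in 22.4% against 2.91%, and GGTCCG in 19.4% against 11.7%. Of genes with a region, 19.3% had GGTCCG in that window. No paired analysis was possible because a position list gives no library a value of its own. Depth and signal below the authors' threshold are unknown, and no stricter threshold could be tried.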
